A study of Oryza sativa with 12 samples.

Results

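The heat response of *ntl3-1* rice seedlings was followed in 6 of the 12 RNA-Seq libraries of the study, 3 from seedlings moved to 45 ºC and 3 from seedlings left at 29 ºC, chosen by their labels alone. The *ntl3-1* line carries a CRISPR-Cas9 edit of OsNTL3 in the cultivar Nipponbare, and the labels write its genotype as NTL3-/-. Unedited Nipponbare seedlings (WT) made up the other 6 libraries, 3 at each temperature, and serve here to show where the edited line differs. The WT libraries also entered the gene filter and the estimate of spread behind the p-values of the main fit. All seedlings were 8 days old and were treated for 3 h. The allele name and both temperatures come from the paper, since the labels name only control and heat. Everything below rests on a single edited line and on whole seedlings, where a changed share of a tissue and a changed amount of RNA per cell cannot be told apart. Neither source says whether the replicates were grown separately, and if they were not, the p-values measure only the spread between these libraries.

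OsNTL3 encodes a NAC transcription factor that is held in a membrane and is known for moving to the nucleus under stress. A cytosolic and an ER programme are known to protect plant cells from heat, and both are described below for seedlings without an intact OsNTL3. In the cytosol, heat shock factors (HSFs) switch on genes for heat shock proteins (HSPs), chaperones that hold, refold or disaggregate damaged proteins. In the endoplasmic reticulum (ER), the unfolded protein response (UPR) uses bZIP factors to raise ER chaperones such as BiP, calreticulin and protein disulfide isomerase.

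The edited gene was still transcribed and still responded. OsNTL3 (LOC_Os01g15640, chromosome 1) stood at 13.9, 10.3 and 14.1 FPKM at 29 ºC beside 28.7, 28.4 and 34.1 FPKM at 45 ºC in the *ntl3-1* libraries, always in the order of the replicate numbers. Its libraries at 45 ºC lay above all those at 29 ºC, with a log2FC of 1.26 ± 0.17 (SE, adjusted p = 0.000127) in limma. FPKM counts edited and unedited transcripts alike, so the edit itself is not checked by these values. As a check on the tissue label, the photosystem II reaction centre W protein gene LOC_Os05g43310, active in green tissue, held 93.8, 121 and 87.6 FPKM at 29 ºC beside 50.7, 54.3 and 49.7 FPKM at 45 ºC, a log2FC of -0.95 that was called only after quantile normalization (-1.51) or without replicate 3 at 29 ºC. The other locus described as photosystem II, the 10 kDa polypeptide gene LOC_Os07g05365, went the opposite way. It rose from 3.13, 3.81 and 2.54 FPKM to 268, 170.1 and 91.9 FPKM, a log2FC of 5.65 ± 0.35 (SE, adjusted p = 5.63e-07) beside 5.13 in WT. The FPKM sums were 640517 to 698971 at 29 ºC and 1194530 to 1355870 at 45 ºC, and the lowest r of each *ntl3-1* library with its replicates was 0.971 to 0.978 on the log2 scale across genes, which are not independent replicates. The median log2FC of the 17004 genes above 1 FPKM in all libraries was 0.02, so within the deposited values the sums grew through abundant genes. Whether the authors applied a further scaling is not stated, so this median cannot show how far the typical gene changed. Quantile normalization, which forces all libraries to one distribution, moved this median to -0.15 and lowered the log2FC of abundant genes most. For genes described one by one, calls that ended under it are given.

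A single library stood apart at 29 ºC. Replicate 1 of *ntl3-1* held the highest of the 3 values for 64 of the 80 up-regulated genes with a log2FC of at least 8, against 5 for replicate 2 and 11 for replicate 3. Those 80 genes summed to 459, 149.6 and 208 FPKM in the 3 libraries, while WT at 29 ºC gave 134 to 158 FPKM. Over all 4082 up-regulated genes the same replicate was highest in 32.9%, close to the share of 32.3% over the 26995 genes above 0 in every library of the group. In sum, the strongest heat genes thus stood higher in that library than in the other 5 at 29 ºC, and the reason was not tested. Their median log2FC was 9.35 with this library and 9.71 without it, and all 80 stayed up-regulated. Without it 3863 genes were up-regulated and 3352 down-regulated in total.

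Of 31681 genes tested, 4082 (12.9%) were up- and 3595 (11.3%) down-regulated in *ntl3-1* at 45 ºC, with an adjusted p up to 0.05 and a log2FC of at least 1 in size (limma on log2(FPKM + 0.1), Benjamini-Hochberg adjustment). The added 0.1 FPKM makes these fold changes too small for weakly expressed genes. The up-regulated genes moved further, since 867 of them reached a log2FC of 3 and 293 reached 5, against 329 and 43 down-regulated genes. Their median log2FC was 1.79, and that of the down-regulated genes was -1.52, beside -0.04 over all genes tested. In WT the same genes had medians of 1.78 and -1.40. The libraries of the 2 temperatures did not overlap for 4022 of the up-regulated and 3523 of the down-regulated genes, where 27.9% and 29.5% of all genes tested were separated in these directions. Up-regulated genes took up 11% to 11.5% of the FPKM sum at 29 ºC and 50.6% to 55.9% at 45 ºC. Down-regulated genes went from 10.4% to 11.4% down to 1.61% to 2.0%.

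The response was in part one of genes listed at 0 in one state. Of the up-regulated genes, 258 were listed at 0 in all 3 libraries at 29 ºC, and 202 down-regulated genes were listed at 0 in all 3 at 45 ºC. Abundant transcripts were mainly gained. At 45 ºC, 148 genes had a mean above 1000 FPKM and 99 of them were up-regulated, whereas 8 of the 61 genes this abundant at 29 ºC were down-regulated. The balance of directions depended on the scale, with 53.2% of the calls up-regulated here, 63.2% (2947 up- and 1715 down-regulated) with 1 FPKM added in place of 0.1, and 48.6% (3738 and 3949) after quantile normalization. Up-regulated genes made up 10.1% of the genes tested on chromosome 11 and 15.2% on chromosome 5, the lowest and highest shares, and down-regulated genes 9.02% on chromosome 3 and 14.2% on chromosome 11.

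Product descriptions were available for 1918 loci, from a shortened list of genes that the study itself called heat-responsive in WT on these same libraries. Class counts therefore carry that choice, and are not independent evidence of a direction. By the fit used here 1070 of the 1918 loci were up- and 721 down-regulated in WT, beside 711 and 181 in *ntl3-1*. A class median nearer 0 in *ntl3-1* than in WT follows in part from this choice and is not read as a result. In total 288 of the 613 loci placed in a class were called in *ntl3-1*. Class members come from the 1918 described loci, so their counts are to be set beside 711 and 181 of 1918. The shares over all genes tested are no like measure for them. The up-regulated shares of the AP2/ERF, C2H2, cytochrome P450, kinase, transporter and ubiquitin ligase classes lay near or below that of the described loci. Counts of down-regulated members were small and depended on the added constant, and with 1 FPKM added they became 9 in place of 20 for kinases, 2 in place of 6 for transporters, 2 in place of 5 for cytochrome P450 enzymes, 0 in place of 3 for ubiquitin ligases and 0 in place of 2 for WRKY factors.

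**Figure D1:**
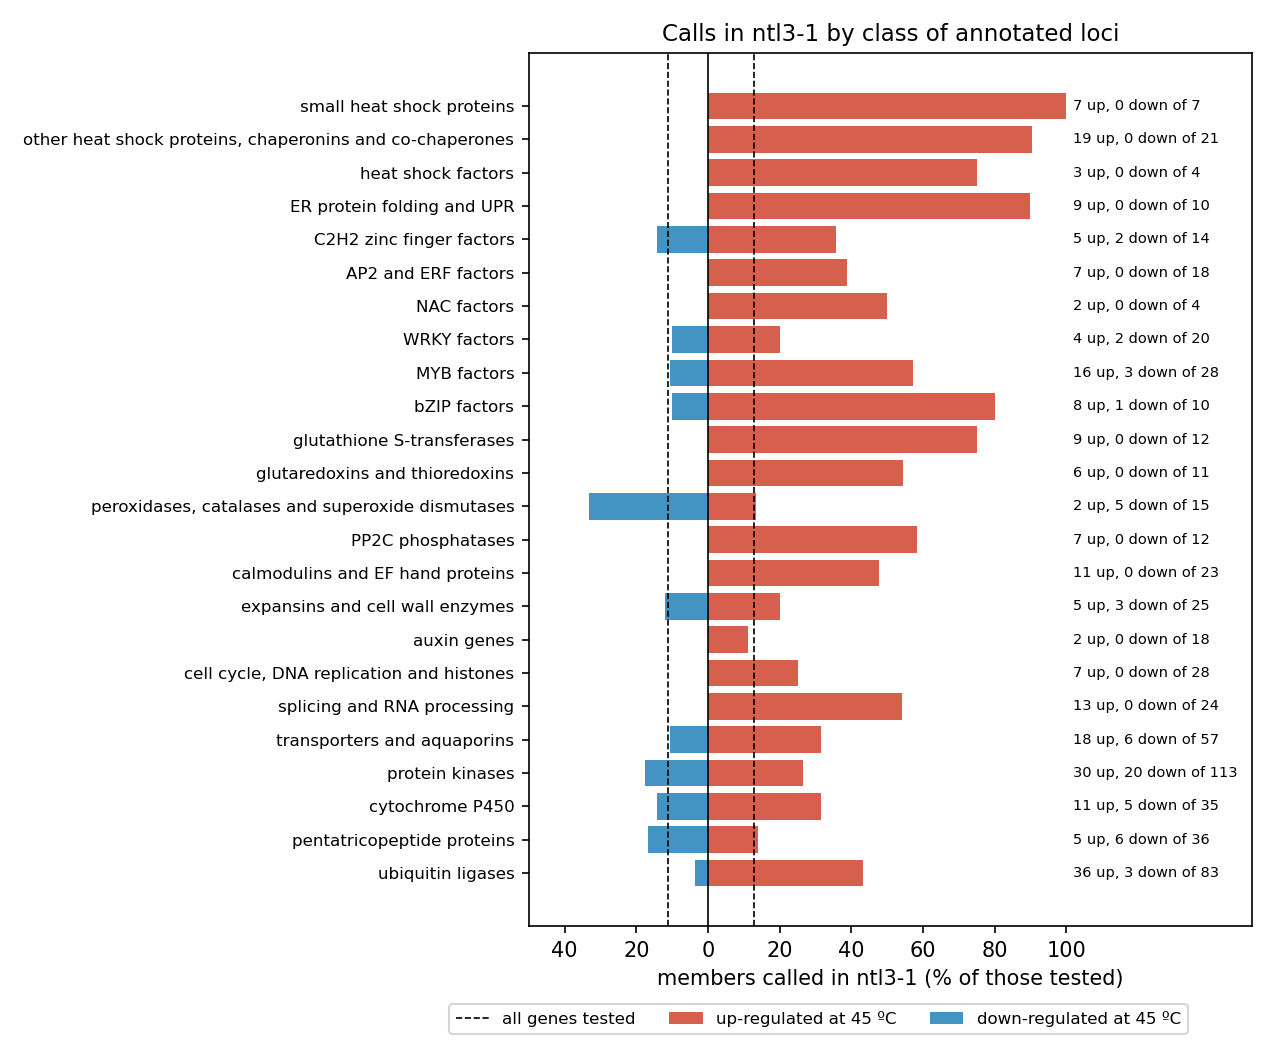
Share of the tested members of each class that was up-regulated (red, to the right) or down-regulated (blue, to the left) in *ntl3-1* at 45 ºC, in percent, with the counts at the right. The dashed lines mark 12.9% up- and 11.3% down-regulated over all 31681 genes tested, and the chaperone, HSF and ER classes at the top hold 0 down-regulated members. Members were drawn from the 1918 described loci, of which 711 were up- and 181 down-regulated, a share that the lines do not show.

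Small HSPs, which bind unfolding proteins and keep them from clumping, gave the largest response of any class, with 7 of 7 members up-regulated and a median log2FC of 10.03 (WT 10.09). LOC_Os03g14180, an hsp20/alpha crystallin protein on chromosome 3, rose from 30.2, 2.75 and 7.58 FPKM to 26823, 21129 and 19560.4 FPKM. Its log2FC was 11.32 ± 0.64 (SE, adjusted p = 2.73e-07), and the first library at 29 ºC was the highest of its group by a wide margin. LOC_Os01g04360 and LOC_Os01g04380, which lie close together on chromosome 1 by their locus numbers, shared this pattern. The former rose from 15.2, 1.92 and 3.97 FPKM to 15562, 12183 and 7909.6 FPKM (log2FC 11.16), and the latter from 25.8, 5.14 and 6.61 FPKM to 15576, 13849 and 10142 FPKM (log2FC 10.39). LOC_Os03g16040 gained the same order of magnitude, from 25.2, 12.2 and 15.5 FPKM to 19339.9, 19033 and 15129 FPKM (log2FC 10.03).

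The libraries at 29 ºC lay closer together for the remaining small HSPs. The heat shock 22 kDa protein LOC_Os02g52150 rose from 4.66, 4.57 and 5.27 FPKM to 1883, 2065 and 2033 FPKM, with a log2FC of 8.66 ± 0.19 (SE, adjusted p = 1.1e-09). LOC_Os06g14240 followed with a log2FC of 8.57. The exception in size was LOC_Os01g04350, the neighbour by number of the strongly induced LOC_Os01g04360, which was already abundant at 29 ºC. It rose from 209.8, 189.7 and 210.2 FPKM to 744, 521 and 449 FPKM, a log2FC of 1.46 ± 0.17 (SE, adjusted p = 4.6e-05) that dropped to 0.48 and lost its call after quantile normalization. Closely related small HSP genes can share reads, and how the authors' counting assigned them is not stated, so the split between neighbours is uncertain. Summed over the 7 genes, small HSPs held 323, 224 and 256 FPKM at 29 ºC beside 83396, 71753 and 58370 FPKM at 45 ºC, beside 204 to 218 and 64550 to 88725 FPKM in WT. Leaving out replicate 1 at 29 ºC, which was highest for 5 of the 7 genes, raised the median log2FC to 10.32.

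**Figure D2:**
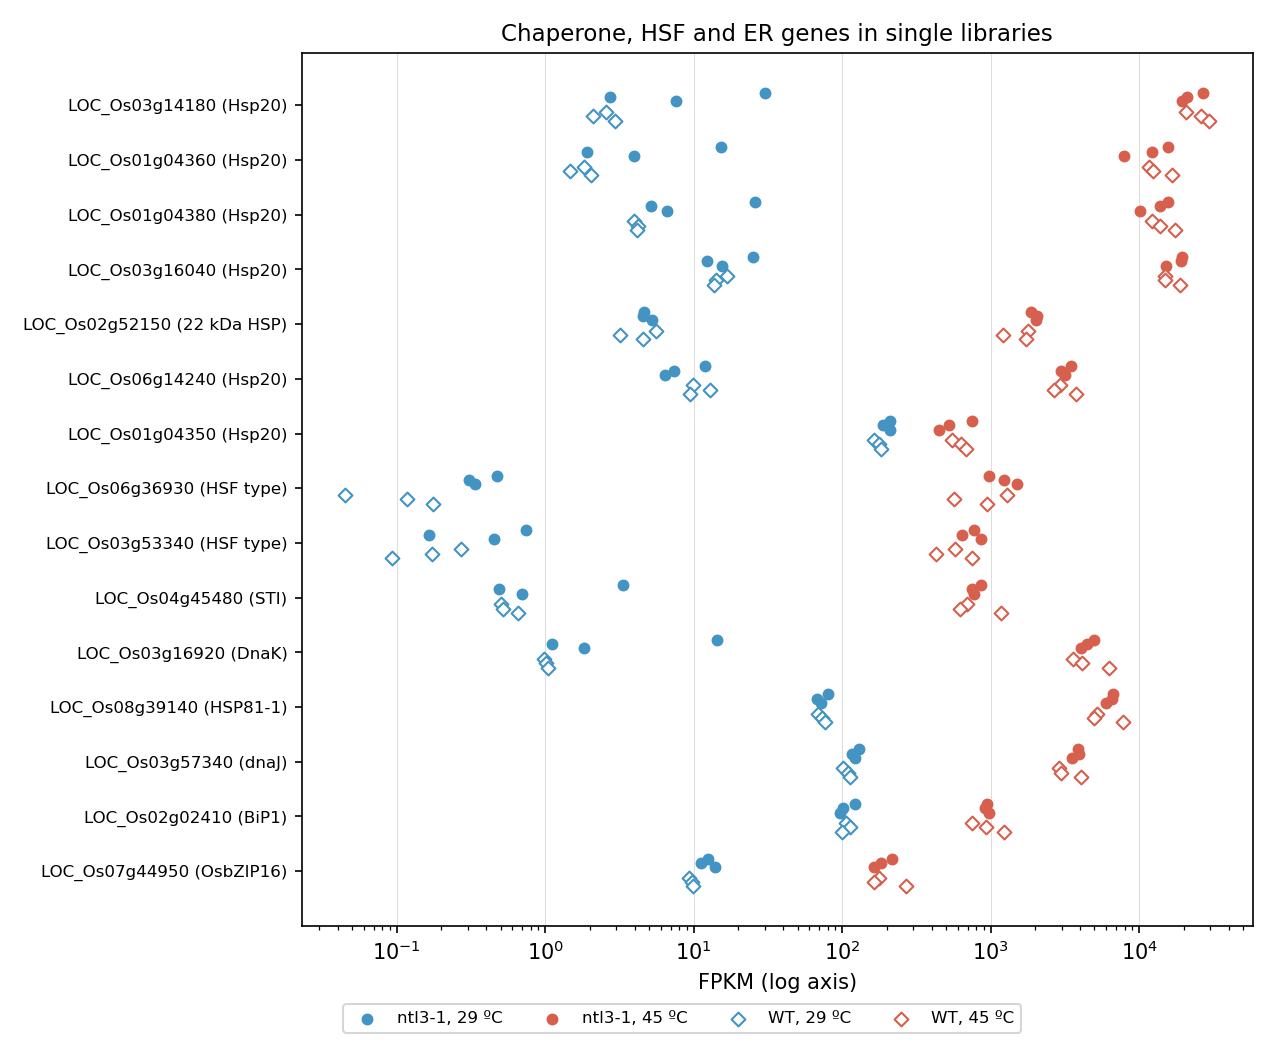
FPKM on a log axis of 15 chaperone, HSF and ER genes, 1 point per library, with *ntl3-1* as filled circles and WT as open diamonds, and 29 ºC in blue and 45 ºC in red. The temperatures are separated for every gene shown, while 1 *ntl3-1* library at 29 ºC lies to the right of its group for LOC_Os03g14180 (30.2 FPKM) and LOC_Os03g16920 (14.3 FPKM).

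The other HSPs, chaperonins and co-chaperones comprised 21 loci, of which 19 were up-regulated and 0 were down-regulated, with a median log2FC of 2.58 (WT 2.64). All 21 had their 45 ºC libraries above those at 29 ºC. The members rose by very different amounts. LOC_Os04g45480, an STI protein of the kind that links the HSP70 and HSP90 machines, rose from 3.36, 0.488 and 0.697 FPKM to 865, 749 and 776 FPKM (log2FC 9.40 ± 0.53 SE, adjusted p = 2.71e-07). The dnaJ domain gene LOC_Os05g48810, of the family of HSP70 partners, rose from 7.57, 6.33 and 6.33 FPKM to 1841, 1859.8 and 1832 FPKM, with nearly equal replicates and a log2FC of 8.08 ± 0.13 (SE, adjusted p = 1.75e-10). LOC_Os03g16920 is described as a DnaK (HSP70) family protein, which the words used for this class did not capture. It rose from 14.3, 1.1 and 1.82 FPKM to 4957, 4486 and 4048 FPKM, with a log2FC of 10.45.

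HSP90 genes rose from a higher starting level. LOC_Os08g39140 (HSP81-1) rose from 80.1, 67.6 and 72.2 FPKM to 6709, 6594 and 5991 FPKM, a log2FC of 6.45 ± 0.18 (SE, adjusted p = 2.53e-09). LOC_Os08g36150, an activator of the HSP90 ATPase, rose by a log2FC of 4.75 from 24.7 to 25.5 FPKM, an unusually tight group at 29 ºC. LOC_Os09g30412, described as a heat shock protein and molecular chaperone, rose from 199, 157 and 157 FPKM to 4274, 3443 and 2513 FPKM (log2FC 4.29), and LOC_Os09g29840 and LOC_Os12g32986 rose by log2FC of 3.36 and 3.01. The disaggregase clpB 1 (LOC_Os03g31300), which pulls proteins out of aggregates, rose from 17.3, 12.7 and 13.4 FPKM to 1314, 1121 and 1241 FPKM, a log2FC of 6.40 ± 0.22 (SE, adjusted p = 8.25e-09). The chaperone dnaJ gene LOC_Os03g57340 rose from 129.6, 116 and 122 FPKM to 3880.0, 3938 and 3538 FPKM (log2FC 4.95).

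Chaperonins and GrpE co-chaperones, which serve folding inside organelles, moved less. The chaperonin LOC_Os09g26730 rose from 63, 63.5 and 56.9 FPKM to 382, 322 and 235 FPKM (log2FC 2.33), and the Cpn60/TCP-1 chaperonin LOC_Os08g34950 rose by 1.11, or 0.80 without a call after quantile normalization. The GrpE genes LOC_Os09g11250 and LOC_Os02g39870 rose by log2FC of 2.63 and 1.89. A dnaJ gene, LOC_Os06g44160, rose by 1.47 in *ntl3-1* and 2.76 in WT, a difference that did not pass the test (interaction adjusted p = 0.298), and its *ntl3-1* call ended after quantile normalization. Both members that were not called were dnaJ genes. LOC_Os01g37560 (dnaJ 49) held 50.5, 50.5 and 50.6 FPKM at 29 ºC beside 96.9, 85.8 and 83 FPKM at 45 ºC, a log2FC of 0.81 below the fold threshold although the groups did not overlap. LOC_Os08g28700 had a log2FC of 0.47.

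HSFs include the activators of HSP genes, and of the 4 loci described by an HSF-type DNA-binding domain 3 were up-regulated (median log2FC 6.69, WT 6.48). LOC_Os06g36930 rose from 0.476, 0.308 and 0.338 FPKM to 976, 1227 and 1495 FPKM, one of the steepest rises in the data with a log2FC of 11.34 ± 0.31 (SE, adjusted p = 2.53e-09). LOC_Os03g53340 rose from 0.74, 0.164 and 0.451 FPKM to 768, 637 and 855 FPKM (log2FC 10.56 ± 0.39 SE, adjusted p = 1.41e-08). Both were close to undetected at 29 ºC and abundant at 45 ºC. LOC_Os07g44690 rose at a far lower level, from 0.448, 0.429 and 0.4 FPKM to 3.96, 5.26 and 2.21 FPKM (log2FC 2.81). LOC_Os05g45410 held 3.62, 1.76 and 2.85 FPKM at 29 ºC beside 6.98, 2.91 and 3.32 FPKM at 45 ºC, with overlapping groups and a log2FC of 0.61 (adjusted p = 0.207). The list holds the 4 HSF loci that the sources used here describe, and other HSF genes of rice were not named.

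In the ER, 9 of 10 genes were up-regulated, with a median log2FC of 2.95 (WT 3.44), and 1 of them, OsbZIP74, had an interaction with genotype. BiP1 (LOC_Os02g02410), the main HSP70 of the ER, rose from 122, 101 and 97 FPKM to 939, 919.9 and 976 FPKM, with a log2FC of 3.15 ± 0.17 (SE, adjusted p = 1.66e-07) beside 3.16 in WT. The calreticulin LOC_Os03g61670 rose from 3.84, 3.14 and 1.55 FPKM to 49.1, 38.8 and 19.8 FPKM (log2FC 3.61), with a wide spread at both temperatures. The more abundant calreticulin LOC_Os01g67054 rose from 123, 105 and 119.8 FPKM to 436, 413 and 235 FPKM (log2FC 1.60, lost after quantile normalization at 0.76). The protein disulfide isomerase PDIL2-3 (LOC_Os09g27830), which forms disulfide bonds in new proteins, rose by 1.98.

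The bZIP factors of the UPR rose as well. OsbZIP16 (LOC_Os07g44950) rose from 12.4, 11.1 and 14 FPKM to 216, 184 and 164 FPKM (log2FC 3.90 ± 0.17 SE, adjusted p = 5.1e-08), and OsbZIP17 (LOC_Os05g34050) from 14, 13.5 and 13.7 FPKM to 79.7, 64.9 and 64 FPKM (log2FC 2.32). OsbZIP74 (LOC_Os06g41770) rose from 18.1, 17.8 and 18.4 FPKM to 116, 120.2 and 129.5 FPKM, a log2FC of 2.74 ± 0.11 (SE, adjusted p = 2.03e-08) against 3.73 in WT. The interaction of -0.98 ± 0.15 (SE, adjusted p = 0.0351) passed in 7 of 20 alternatives (other fits, scalings, filters or sets of libraries, at an adjusted p up to 0.05), and it was lost when any 1 of the 6 *ntl3-1* libraries was left out. The Sec61 beta subunit gene LOC_Os01g38510, part of the channel that carries proteins into the ER, held 53.9, 56.9 and 43 FPKM at 29 ºC beside 67, 89.2 and 70.2 FPKM at 45 ºC and was not called (log2FC 0.56, adjusted p = 0.378). The 10 genes summed to 343 to 391 FPKM at 29 ºC and 1822 to 2115 FPKM at 45 ºC.

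Among transcription factor families other than the HSFs, bZIP and MYB factors held the most up-regulated members for their number. For bZIP factors, 8 of 10 were up-regulated and 1 was down-regulated, with a median log2FC of 2.06 (WT 2.13). After quantile normalization these counts were 7 and 0. Besides the 3 UPR factors, LOC_Os06g45140 rose from 28, 27.1 and 37.2 FPKM to 243, 138 and 185 FPKM (log2FC 2.59). Of 28 MYB factors, 16 were up-regulated and 3 were down-regulated, with a median of 1.43 (WT 1.40), and median-of-ratios rescaling gave 5 down-regulated. LOC_Os02g46030 rose from 0.333, 0.184 and 0.687 FPKM to 24.7, 16.3 and 22.4 FPKM (log2FC 5.51 ± 0.39 SE, adjusted p = 1.4e-06), and LOC_Os04g49450 and LOC_Os05g37050 rose by log2FC of 4.98 and 5.0. The most abundant MYB gene that rose was LOC_Os08g43550, from 63.1, 66.1 and 74.1 FPKM to 406, 269 and 245 FPKM (log2FC 2.14). In the other direction, LOC_Os01g74410 fell from 269.8, 267 and 313 FPKM to 25.7, 21.5 and 32.6 FPKM, a log2FC of -3.42 ± 0.18 (SE, adjusted p = 1.46e-07).

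NAC and AP2/ERF factors, families with many stress regulators, held 2 of 4 and 7 of 18 up-regulated members and 0 down-regulated ones. Besides OsNTL3, the NAC gene LOC_Os05g34830 rose from 3.25, 3.76 and 4.95 FPKM to 118, 79.1 and 122 FPKM (log2FC 4.70 ± 0.26 SE, adjusted p = 2.22e-07). NAC67 (LOC_Os07g12340) held 35.6, 34.4 and 49.2 FPKM at 29 ºC beside 27.5, 30.4 and 32.7 FPKM at 45 ºC with a log2FC of -0.38, against 1.20 in WT, and this difference did not pass the test (interaction adjusted p = 0.228). The AP2 domain gene LOC_Os08g36920 rose from 1.13, 1.82 and 3.55 FPKM to 21.9, 19.3 and 25.4 FPKM, a log2FC of 3.44 ± 0.38 (SE, adjusted p = 3.39e-05) in *ntl3-1* and 6.27 in WT (interaction adjusted p = 0.0832). ERF110 (LOC_Os11g06770) rose from 0.0996, 0.644 and 0.582 FPKM to 15.2, 14.2 and 13.2 FPKM (log2FC 4.94). Both genes were low at 29 ºC and clearly separated from it at 45 ºC. The AP2 domain gene LOC_Os03g08460 held 26.7, 24.5 and 31.8 FPKM at 29 ºC beside 38.1, 28.5 and 18.2 FPKM at 45 ºC, overlapping groups with a log2FC of -0.02. Its log2FC was lower than in WT, with an interaction of -1.12 without replicate 1 of *ntl3-1* at 29 ºC. The interaction over all libraries did not pass the test.

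WRKY factors are known mainly as regulators of defence. Of 20 members, 4 were up- and 2 down-regulated in *ntl3-1*, with a median log2FC of 0.50 (WT 1.45, where 14 were up-regulated and 3 down-regulated). Beside this, 24.2% of all genes were called in either direction, and 711 were up- and 181 down-regulated of the 1918 described loci. OsWRKY14 (LOC_Os01g53040) rose from 7.11, 4.67 and 7.88 FPKM to 30.1, 37.4 and 33.4 FPKM (log2FC 2.37 ± 0.27 SE, adjusted p = 4.26e-05). OsWRKY71 (LOC_Os02g08440) rose from 22.7, 39.1 and 55.5 FPKM to 107, 108 and 154 FPKM (log2FC 1.72), OsWRKY11 (LOC_Os01g43650) rose by 1.59 and OsWRKY76 (LOC_Os09g25060) by 1.40, a call that ended without replicate 2 of either temperature. For 10 of the 20 genes the temperatures overlapped. The 45 ºC libraries lay wholly above those at 29 ºC for 8 and wholly below for 2. Of all genes tested, 27.9% and 29.5% were separated in these directions. OsWRKY53 (LOC_Os05g27730), the most abundant, held 96.4, 129 and 164 FPKM at 29 ºC beside 169.9, 164 and 192 FPKM at 45 ºC (log2FC 0.46, not called and of negative sign after quantile normalization), and OsWRKY45 (LOC_Os05g25770) held 47.2, 37.4 and 49.3 FPKM at 29 ºC beside 26.1, 39.5 and 36 FPKM at 45 ºC with overlapping groups (log2FC -0.41, WT 1.57, interaction adjusted p = 0.0533). A pair of WRKY genes passed the interaction test and are described with it below.

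C2H2 zinc finger factors were mixed, with 5 of 14 up-regulated and 2 down-regulated and a median log2FC of 0.76 (WT 1.44), or 3 and 2 after quantile normalization. LOC_Os01g62190 rose from 2.42, 2.26 and 5.59 FPKM to 24.3, 17.4 and 18.1 FPKM (log2FC 2.61) and ZOS3-17 (LOC_Os03g50850) from 23.5, 21.1 and 22 FPKM to 99.7, 88.6 and 82.7 FPKM (log2FC 2.02). ZOS5-02 (LOC_Os05g02390) held 3.31, 5.07 and 5.84 FPKM at 29 ºC beside 7.15, 8.24 and 13.7 FPKM at 45 ºC and just missed a call, with an adjusted p of 0.0674 at a log2FC of 1.00. This log2FC was lower than in WT, with an interaction of -1.29 without replicate 1 of *ntl3-1* at 29 ºC, and did not differ by the test over all libraries. ZOS11-11 (LOC_Os11g48000) fell by 1.57 on the log2 scale. Outside these families, the ethylene-insensitive 3 gene LOC_Os07g48630, of a family that transmits the ethylene signal, rose from 50, 62.1 and 67.6 FPKM to 367, 278 and 314 FPKM (log2FC 2.42 ± 0.16 SE, adjusted p = 1.1e-06).

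Enzymes that handle oxidised or foreign compounds split by type. Glutathione S-transferases, which couple glutathione to toxic products, had 9 of 12 members up-regulated and 0 down-regulated, with a median log2FC of 1.43 (WT 2.20). LOC_Os03g57200 rose from 7.09, 6.3 and 9.42 FPKM to 185, 193 and 73.5 FPKM (log2FC 4.18 ± 0.35 SE, adjusted p = 4.75e-06), with 1 library at 45 ºC well below the other two. LOC_Os05g02530 was the most abundant and rose from 85.1, 80 and 82 FPKM to 649.8, 586 and 516 FPKM (log2FC 2.82). LOC_Os09g20220 and LOC_Os10g38160 rose by log2FC of 4.54 and 3.42.

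Of 11 glutaredoxins and thioredoxins, which reduce disulfides, 6 were up-regulated and 0 down-regulated. OsGrx_S17 (LOC_Os10g35720) rose from 37.6, 36.4 and 37.3 FPKM to 205, 178 and 132 FPKM (log2FC 2.18). The thioredoxin LOC_Os01g37832 rose by a log2FC of 2.10. Peroxidases were the class with most down-regulated members for its number, 5 of 15 against 2 up-regulated, and a median of -0.43 (WT -1.61). LOC_Os07g44590 fell from 9.46, 9.26 and 16.3 FPKM to 0.623, 1.11 and 0.474 FPKM (log2FC -3.84 ± 0.36 SE, adjusted p = 1.1e-05). LOC_Os01g15810 held 9.56, 5.01 and 8.08 FPKM at 29 ºC and was listed at 0 in all libraries at 45 ºC. The glutathione peroxidase gene LOC_Os02g44500, which removes lipid peroxides, went the other way and rose from 104, 99.4 and 109 FPKM to 733, 460.5 and 567 FPKM (log2FC 2.47 ± 0.20 SE, adjusted p = 3.29e-06). No member of this class was described as a catalase or superoxide dismutase.

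Several signalling genes rose from low levels. PP2C phosphatases, a family that includes brakes on abscisic acid signalling, had 7 of 12 members up-regulated and 0 down-regulated (median log2FC 1.68, WT 1.78). LOC_Os06g48300 rose from 1.52, 1.04 and 1.95 FPKM to 103, 67.5 and 67 FPKM (log2FC 5.64 ± 0.28 SE, adjusted p = 1.12e-07). LOC_Os03g16170 rose from 0.922, 0.95 and 1.24 FPKM to 44.3, 28.7 and 71 FPKM (log2FC 5.32), and LOC_Os05g38290 from 0.652, 0.61 and 0.435 FPKM to 29.1, 18.6 and 27.1 FPKM (log2FC 5.22). All 3 stood between 0.435 and 1.95 FPKM at 29 ºC and between 18.6 and 103 FPKM at 45 ºC.

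Of 23 loci described with calmodulin or an EF hand, which bind calcium, 11 were up-regulated and 0 were down-regulated. After quantile normalization 8 were up-regulated and 2 were down-regulated. The calmodulin-related calcium sensor LOC_Os03g53200 rose from 14.3, 10.1 and 12.6 FPKM to 195, 135 and 114 FPKM (log2FC 3.55 ± 0.29 SE, adjusted p = 3.63e-06). Part of this class are kinases named for the calcium and calmodulin group, such as LOC_Os05g43840, which rose from 19.9, 24.4 and 23.1 FPKM to 126, 130.1 and 125 FPKM (log2FC 2.49). Calmodulin-like protein 1 (LOC_Os01g72080), the most abundant member, held 184, 179 and 208 FPKM at 29 ºC beside 384, 377 and 358 FPKM at 45 ºC and narrowly missed the fold threshold (log2FC 0.97), which it passed without replicate 3 of either temperature.

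The 113 loci with the word kinase in their description were divided, with 30 up-regulated, 20 down-regulated (31 without replicate 2 at 45 ºC) and a median log2FC of -0.59 (WT -1.04). Of the 45 loci among them described as receptors or wall-associated kinases, which sense signals at the cell surface, 14 were down-regulated and 4 were up-regulated. Beside this, 711 were up- and 181 down-regulated of the 1918 described loci, and 45 and 60 of the 113 kinases in WT. With 1 FPKM added, 9 of the 113 were down-regulated in place of 20, and the receptors were not counted apart. LOC_Os11g35500, a receptor-like protein kinase, fell from 3.02, 2.95 and 3.02 FPKM to 0.529, 0.694 and 0.292 FPKM (log2FC -2.41 ± 0.25 SE, adjusted p = 2.43e-05), LOC_Os03g18630 (receptor-like kinase RHG1) fell by 2.36 on the log2 scale and LOC_Os01g02700 by 2.68. On the rising side, the histidine kinase LOC_Os07g38910 rose from 2.9, 2.76 and 2.5 FPKM to 28.8, 38 and 17.2 FPKM (log2FC 3.24). The GSK group kinase LOC_Os05g04340 was more abundant and rose from 28.3, 27.7 and 27.4 FPKM to 172, 139 and 109.6 FPKM (log2FC 2.30).

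Aquaporins, the water channels of membranes, were among the transporters that rose most. Over 57 transporters and aquaporins, 18 were up-regulated and 6 were down-regulated (median log2FC 0.64, WT 1.18), or 18 and 12 after quantile normalization. Of the 1918 described loci, 711 were up- and 181 down-regulated, so the class did not stand out for its up-regulated members. LOC_Os01g74450 rose from 22.7, 29.9 and 29.1 FPKM to 1145, 787 and 1248 FPKM (log2FC 5.26 ± 0.18 SE, adjusted p = 8.25e-09), and LOC_Os08g05590 from 0.387, 0.543 and 0.633 FPKM to 29.7, 31.5 and 35.1 FPKM (log2FC 5.71). The 2 most abundant aquaporin genes depended on the scaling. LOC_Os02g44630 rose from 611, 665 and 528 FPKM to 1783, 1449.5 and 1477 FPKM (log2FC 1.38) and LOC_Os07g26690 by 1.53, and these values became 0.09 and 0.31, without a call, after quantile normalization. The falling transporters included the major facilitator gene LOC_Os02g02190, which went from 13, 12.7 and 22 FPKM to 1.38, 1.51 and 1.62 FPKM (log2FC -3.28).

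Of 24 genes of RNA processing, 13 were up- and 0 down-regulated, with a median log2FC of 1.09 (WT 1.12). Quantile normalization left 7 up-regulated and 2 down-regulated. Of the 1918 described loci, 711 were up- and 181 down-regulated in the main fit, and the 7 of 24 lie below that up-regulated share. LOC_Os02g40900, a protein with an RNA recognition motif, rose from 2.53, 2.19 and 1.9 FPKM to 195, 168 and 227 FPKM (log2FC 6.41 ± 0.20 SE, adjusted p = 4.5e-09), and the DEAD-box helicase LOC_Os06g48210 rose by 4.17. The most abundant of them, LOC_Os03g46770, rose from 2059, 2234 and 2210.4 FPKM to 7914, 6565 and 4828 FPKM, a log2FC of 1.54 that fell to 0.49 and lost its call after quantile normalization. Among 83 genes of ubiquitin ligases, which mark proteins for breakdown, 36 were up-regulated and 3 were down-regulated (5 and 7 without replicates 2 and 3 at 45 ºC), with a median of 0.94 (WT 1.20). The F-box gene LOC_Os03g51760 (OsFBX109) rose from 0.379, 0.27 and 0.573 FPKM to 82.3, 69.7 and 42.4 FPKM (log2FC 6.99 ± 0.28 SE, adjusted p = 2.36e-08). The RING finger genes LOC_Os02g52210 and LOC_Os06g01200 rose by log2FC of 4.28 and 4.22, and the F-box/LRR gene LOC_Os01g65920 by 2.96. Cytochrome P450 enzymes, a large family of oxidases, gave 11 up- and 5 down-regulated members of 35, the latter 3 without replicate 1 at 29 ºC. LOC_Os01g11340 rose from 13.2, 14.5 and 15.8 FPKM to 186, 174 and 148 FPKM (log2FC 3.53).

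Of 28 cell cycle, replication and histone genes, which serve growth, 7 were up- and 0 down-regulated (median log2FC -0.58, WT -1.07), or 3 and 1 after quantile normalization. Without the fold threshold, 13 of them were down-regulated. The shares over all genes were 12.9% and 11.3%, and of the 1918 described loci 711 were up- and 181 down-regulated. The histone H3 gene LOC_Os01g64640 rose from 61.8, 36.7 and 51.6 FPKM to 162, 137 and 130.4 FPKM (log2FC 1.54, lost after quantile normalization at 0.96), and the kinesin gene LOC_Os01g14090 rose by 2.88. Auxin genes gave 2 up- and 0 down-regulated members of 18 (median -0.65, WT -1.07), and 0 and 1 after quantile normalization. OsIAA19 (LOC_Os05g48590), of a family of auxin response repressors, rose from 23.9, 31.3 and 34.8 FPKM to 72.2, 81.7 and 83.5 FPKM (log2FC 1.41), a call that also ended there (0.97).

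Expansins and cell wall enzymes, which loosen or build walls, divided with 5 up- and 3 down-regulated members of 25. The latter were 5 after quantile normalization and 8 without replicate 3 at 45 ºC. The expansins LOC_Os10g39640 and LOC_Os03g04020 rose from 9.85, 13.7 and 13.1 FPKM to 87.3, 61.5 and 74.7 FPKM and from 74.8, 86.7 and 77.5 FPKM to 343, 242 and 271 FPKM, log2FC of 2.60 and 1.83. The pectinesterase LOC_Os02g54190 fell from 1.5, 2.23 and 0.962 FPKM to 0.286, 0.0347 and 0.0326 FPKM, a log2FC of -3.05 ± 0.50 (SE, adjusted p = 0.000509). The class thus held expansins that rose and a beta-expansin, LOC_Os09g29690, that fell by 2.01 on the log2 scale. Of 36 pentatricopeptide proteins, which act on organelle RNA, 5 were up-regulated and 6 were down-regulated. Beside them stand 24.2% of all genes called in either direction, and 711 up- and 181 down-regulated of the 1918 described loci. The down-regulated pentatricopeptide genes numbered 3 after quantile normalization, 0 with 1 FPKM added and 11 with 0.01 FPKM added.

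Down-regulated genes with a description spanned several roles. The 10 with the most negative log2FC, among genes of at least 0.1 FPKM in each library and a mean of at least 5 FPKM, were led by LOC_Os11g34110, described as a heparan-alpha-glucosaminide N-acetyltransferase. It fell from 10.8, 12.1 and 10.4 FPKM to 0.463, 0.655 and 0.999 FPKM (log2FC -3.85 ± 0.29 SE, adjusted p = 2.17e-06). The uclacyanin gene LOC_Os02g43660, of a family of copper proteins, fell from 77.9, 70.3 and 84.7 FPKM to 3.74, 6.19 and 12.2 FPKM (log2FC -3.54), and the nepenthesin-type aspartic proteinase LOC_Os10g39260 from 37.5, 25.8 and 30.8 FPKM to 5.33, 2.82 and 2.94 FPKM (log2FC -3.10). The invertase/pectin methylesterase inhibitor LOC_Os10g36500 fell by 2.54 and the lipid transfer family gene LOC_Os07g07920 (LTPL100) by 2.83 on the log2 scale. The most abundant of the 10 was the thionin-like peptide LOC_Os07g24830, of a group of small defence peptides. It fell from 605, 424 and 572 FPKM to 175, 46.9 and 127 FPKM (log2FC -2.38), without overlap but with a wide spread at 45 ºC.

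**Figure D3:**
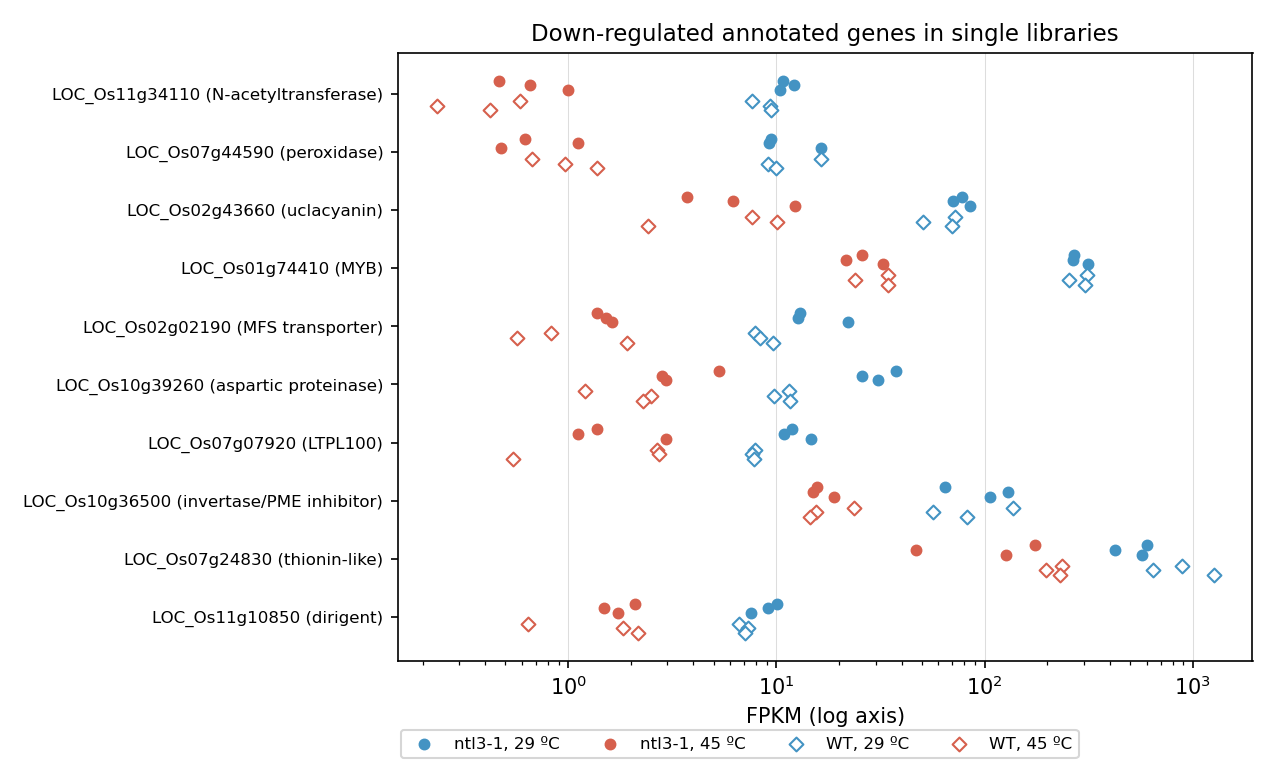
FPKM on a log axis of the 10 down-regulated genes with a description that were named by the rule, 1 point per library, with symbols and colours for genotype and temperature as given in the key. All 3 *ntl3-1* libraries at 45 ºC lie below all 3 at 29 ºC for each gene, from LOC_Os11g34110 (10.4 to 12.1 FPKM at 29 ºC) to LOC_Os11g10850 (7.53 to 10.1 FPKM).

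Many of the largest and most abundant responses belonged to loci with no description in the sources used here. The highest levels at 45 ºC were those of LOC_Os01g04370, which rose from 62.3, 6.48 and 13.5 FPKM to 45061, 38205 and 25411 FPKM (log2FC 10.95 ± 0.63 SE, adjusted p = 3.23e-07), LOC_Os03g16020 and LOC_Os03g15960. By number these loci lie beside the described small HSPs LOC_Os01g04360 and LOC_Os03g16040. LOC_Os05g44340 rose from 4.46, 0.79 and 1.66 FPKM to 6528, 6363 and 6041 FPKM, the largest log2FC among genes of at least 0.1 FPKM in each library and a mean of at least 5 FPKM, at 11.68. The strongest falls among them were those of LOC_Os04g03579, from 58.6, 39.4 and 79.8 FPKM to 0.366, 0.3 and 0.512 FPKM (log2FC -6.88 ± 0.33 SE, adjusted p = 7.89e-08), and LOC_Os07g07860, from 22.1, 26.9 and 39.8 FPKM to 0.343, 0.113 and 0.105 FPKM (log2FC -6.75). The most abundant transcript that fell was LOC_Os07g25050, from 3665, 2963 and 6152 FPKM to 761, 590.4 and 987 FPKM (log2FC -2.41), followed by LOC_Os07g34570 (log2FC -1.33). The study's chromatin immunoprecipitation used LOC_Os12g02210 and LOC_Os01g22490 as negative controls, which the paper calls OsNTL3-independent. LOC_Os12g02210 rose from 0.479, 0.664 and 0.896 FPKM to 12.6, 6.75 and 9.49 FPKM in *ntl3-1* (log2FC 3.63 ± 0.44 SE, adjusted p = 7.12e-05). LOC_Os01g22490 had a log2FC of -0.40 and was called only after quantile normalization (-1.22). A rise with heat in *ntl3-1* does not bear on their use as controls of binding.

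How far this response differed from that of WT was tested as the interaction of genotype and temperature, fitted over all 31681 genes. By this test, 47 genes (0.148%) had a lower log2FC in *ntl3-1* and 29 (0.0915%) a higher one (limma, adjusted p up to 0.05). Among these 76 genes, 49 were also called in *ntl3-1*, 12 up-regulated with a lower and 20 up-regulated with a higher log2FC than in WT, and 17 down-regulated, all with a lower log2FC. A p that misses the threshold does not show equal responses, and the unadjusted p was 0.05 or less for 2415 genes. The genes up-regulated in *ntl3-1* comprised 3373 that were also up-regulated in WT, 706 that were not called in WT and 3 that were down-regulated there. For the down-regulated genes these numbers were 2614, 977 and 4. In *ntl3-1* 372 up-regulated and 474 down-regulated genes lay within 0.1 of the fold threshold, so a call in 1 genotype alone does not show a difference. The log2FC differed by less than 0.5 from that of WT for 2794 of the up-regulated and 2441 of the down-regulated genes. It differed by at least 1 for 560 and 364.

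**Figure D4:**
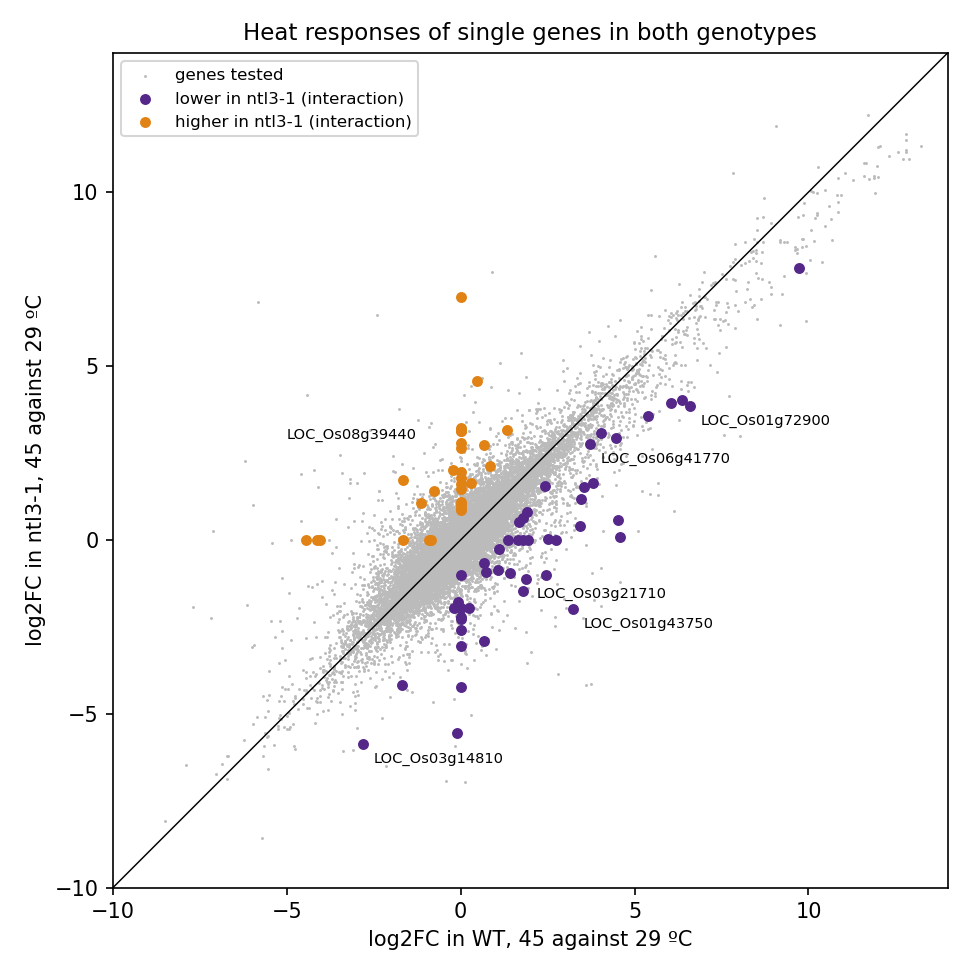
log2FC at 45 against 29 ºC of each of the 31681 genes tested (grey points), in WT on the horizontal and in *ntl3-1* on the vertical axis, with a line of equal response. The 47 genes with a lower (purple) and the 29 with a higher (orange) log2FC in *ntl3-1* by the interaction test lie below and above the line, several of them at 0 in one genotype.

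Low values carried many of the 76 genes. Of them, 42 were listed at 0 in all libraries of at least 1 group, 21 of them in all 6 WT libraries and 11 in all 6 *ntl3-1* libraries, and the fitted difference of such genes depends on the added constant. A mean of at least 5 FPKM over the 12 libraries was reached by 27 genes, 22 with a lower and 5 with a higher log2FC in *ntl3-1*. The 76 genes were chosen by the interaction test on these same values, which favours genes whose genotypes are separated at a temperature. The counts that follow only describe these genes, and the share over all genes was not counted. For the 47 genes with a lower log2FC, all *ntl3-1* libraries lay above all WT libraries at 29 ºC in 30, and below them at 45 ºC in 27. For the 29 with a higher log2FC, they lay above WT at 45 ºC in 23 and below it at 29 ºC in 11.

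Among the genes that rose less in *ntl3-1*, LOC_Os03g53070 had the smallest adjusted p of those named. It rose from 15, 16.6 and 15.3 FPKM to 37.7, 48.1 and 49.5 FPKM in *ntl3-1* and from 11.9, 11.1 and 12.5 FPKM to 119, 149 and 153 FPKM in WT, an interaction of -2.04 ± 0.17 (SE, adjusted p = 0.000784). Its *ntl3-1* libraries lay slightly above all WT libraries at 29 ºC and well below them at 45 ºC. LOC_Os01g58620 repeated this, with 100.1, 85.5 and 83.3 FPKM at 45 ºC in *ntl3-1* against 223, 246 and 364 FPKM in WT and an interaction of -1.83 ± 0.24 (SE, adjusted p = 0.0127). LOC_Os01g72900 differed more widely at 29 ºC, where it stood at 6.45, 6.33 and 5.17 FPKM in *ntl3-1* and at 1.22, 1.68 and 2.14 FPKM in WT, with log2FC of 3.84 and 6.59. None of the 3 has a known function in the sources used here. All 3 interactions passed in each of 20 alternatives. LOC_Os02g39930 and LOC_Os01g40070 were more abundant and had interactions of -1.53 ± 0.23 (SE, adjusted p = 0.0346) and -2.35 ± 0.38 (SE, adjusted p = 0.0437), which passed in 9 and 5 of the 20.

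Genes that rose more in *ntl3-1* were separated at 45 ºC. LOC_Os04g32030 rose from 45.2, 39.5 and 38.8 FPKM to 459, 331 and 331 FPKM in *ntl3-1* and from 48.1, 45.6 and 46.7 FPKM to 115, 106 and 130.3 FPKM in WT, an interaction of 1.85 ± 0.18 (SE, adjusted p = 0.0023). LOC_Os08g39440 reached 135, 110.0 and 96.1 FPKM at 45 ºC in *ntl3-1* against 21.1, 19.5 and 26 FPKM in WT (interaction 2.05 ± 0.20 SE, adjusted p = 0.00229). Both interactions passed in all 20 alternatives, as did that of LOC_Os02g14720. LOC_Os02g14720 and LOC_Os04g49680 were up-regulated in *ntl3-1*, by log2FC of 1.63 and 2.13, and were not called in WT (0.29 and 0.84). These 4 loci have no described function either.

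The WRKY45 transcription factor LOC_Os03g21710 held 3.51, 1.64 and 2.71 FPKM at 29 ºC beside 1.49, 0.953 and 0.893 FPKM at 45 ºC in *ntl3-1* and 0.102, 0.134 and 0.123 FPKM at 29 ºC beside 0.698, 0.821 and 0.62 FPKM at 45 ºC in WT, so that it was higher in *ntl3-1* at both temperatures, fell there and rose in WT (interaction -3.02 ± 0.41 SE, adjusted p = 0.0191). Its fall in *ntl3-1* was not called without replicate 1 at 29 ºC or with 1 FPKM added. OsWRKY77 (LOC_Os01g40260) held 4.12, 3.65 and 5.2 FPKM at 29 ºC beside 7.06, 4.6 and 5.54 FPKM at 45 ºC in *ntl3-1* and 0.157, 0.206 and 0.609 FPKM at 29 ºC beside 4.07, 3.6 and 4.44 FPKM at 45 ºC in WT. Its *ntl3-1* libraries lay above all WT libraries at both temperatures, by far less at 45 ºC than at 29 ºC (interaction -3.04 ± 0.48 SE, adjusted p = 0.0382). Both interactions were lost in several alternatives, 7 and 11 of 20. The MYB-like gene LOC_Os03g14810 (DIVARICATA) fell in both genotypes, from 4.53, 5.39 and 7.74 FPKM to libraries all listed at 0 in *ntl3-1*, and from 15, 15.4 and 19.3 FPKM to 3.36, 1.74 and 1.97 FPKM in WT. The cytochrome P450 72A1 gene LOC_Os01g43750 fell in *ntl3-1*, from 0.635, 0.56 and 1.06 FPKM to 0.113, 0.0734 and 0.138 FPKM, and rose in WT (interaction -5.24 ± 0.52 SE, adjusted p = 0.0023). With 1 FPKM added its log2FC in *ntl3-1* was -0.65, without a call.

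A few described genes with an interaction were up-regulated in WT and not called in *ntl3-1*, and they were named after their values were seen. SFT2 (LOC_Os06g19620), whose relative in yeast acts in transport between ER, Golgi and endosomes, held 9.37, 13.1 and 10.8 FPKM at 29 ºC beside 8.47, 9.99 and 9.19 FPKM at 45 ºC in *ntl3-1* and 11.4, 9.13 and 9.75 FPKM at 29 ºC beside 22.6, 21.4 and 20.5 FPKM at 45 ºC in WT, an interaction of -1.35 ± 0.18 (SE, adjusted p = 0.0182). The vesicle-fusing ATPase gene LOC_Os05g44310, of the type that resets the machinery of membrane fusion, held 22.7, 21 and 20 FPKM at 29 ºC beside 35.7, 34.8 and 40.1 FPKM at 45 ºC in *ntl3-1* and 24.4, 27.4 and 24.5 FPKM at 29 ºC beside 77.1, 103 and 112 FPKM at 45 ºC in WT (interaction -1.13 ± 0.18 SE, adjusted p = 0.0403). Levels at 29 ºC overlapped between the genotypes for SFT2 and were lower in *ntl3-1* for the ATPase, and at 45 ºC *ntl3-1* lay below WT for both. The DUF803 genes LOC_Os01g65310 and LOC_Os01g65986 followed the same pattern, with interactions of -1.14 ± 0.15 (SE, adjusted p = 0.0127) and -1.15 ± 0.18 (SE, adjusted p = 0.0394). Of 20 alternatives, the interaction passed in all for LOC_Os01g65310, in 16 for SFT2, in 6 for LOC_Os01g65986 and in 4 for the ATPase.

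**Figure D5:**
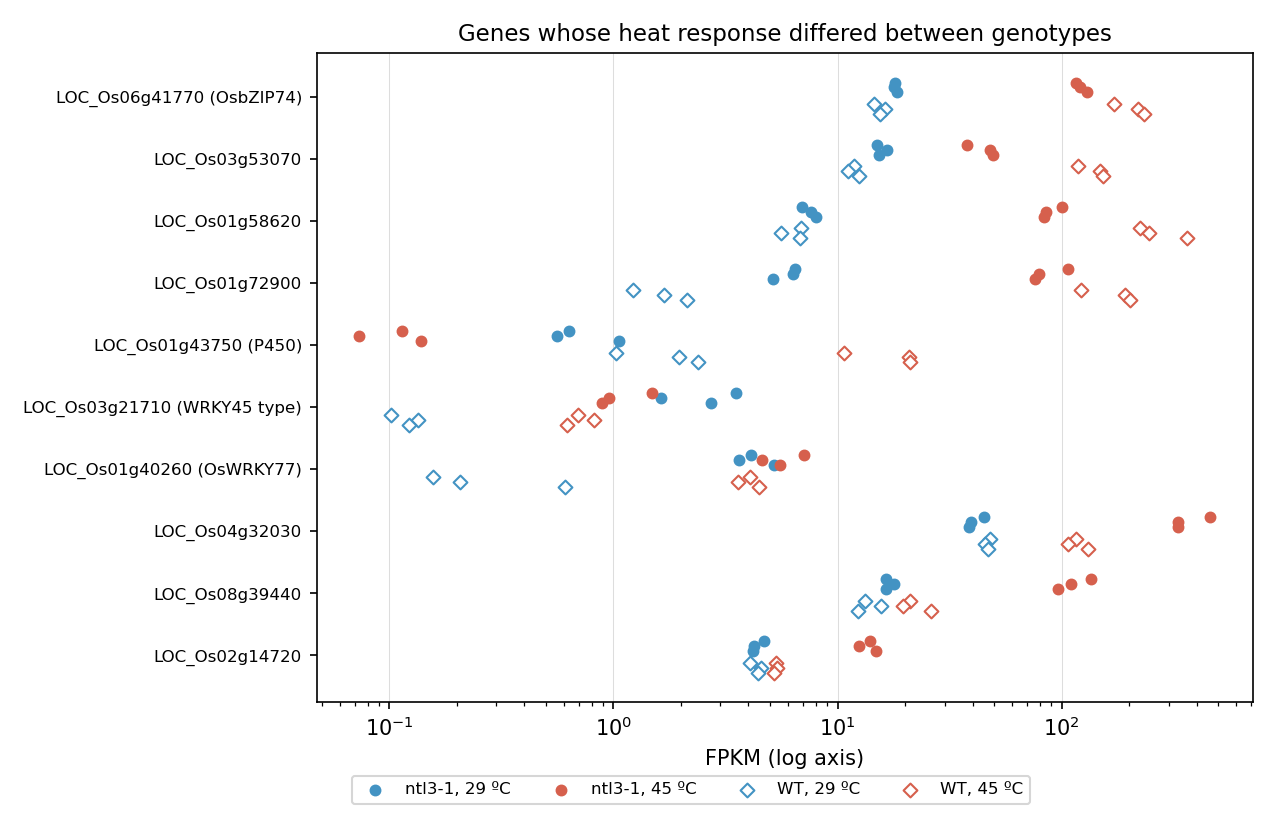
FPKM on a log axis of 10 genes whose heat response differed between the genotypes, 1 point per library, with symbols and colours for genotype and temperature as given in the key. OsbZIP74, LOC_Os03g53070 and LOC_Os01g58620 differ mainly at 45 ºC, LOC_Os01g40260 at 29 ºC, and LOC_Os04g32030, LOC_Os08g39440 and LOC_Os02g14720 are higher in *ntl3-1* at 45 ºC.

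Some large differences between the genotypes did not pass the test. LOC_Os10g21196 held 15.9, 0 and 0 FPKM at 29 ºC beside 39.2, 46.9 and 132 FPKM at 45 ºC in *ntl3-1* and 25, 74.6 and 33.5 FPKM at 29 ºC beside 34.9, 0 and 0 FPKM at 45 ºC in WT, and its interaction had an adjusted p of 0.265. Of its 12 libraries 4 were listed at 0, and its rise in *ntl3-1* lost its call without any 1 of 5 of the *ntl3-1* libraries. LOC_Os12g43380 fell in *ntl3-1* from 147, 291 and 175 FPKM to 83.7, 45.3 and 9.68 FPKM, all above its WT levels of 1.51 to 6.34 FPKM, the last of them only slightly (interaction adjusted p = 0.481). LOC_Os06g38764 fell from 57.4, 36.8 and 54.7 FPKM to 10.5, 10.1 and 16.8 FPKM in *ntl3-1*, held 6.44, 8.38 and 9.86 FPKM at 29 ºC beside 7.19, 12.2 and 8.4 FPKM at 45 ºC in WT and had an interaction adjusted p of 0.062. In all, 59 genes with a mean of at least 5 FPKM were called in *ntl3-1* and had a WT log2FC of opposite sign or under 0.5 in size.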

How the data were processed

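By the paper's methods, reads were cleaned with SeqPrep and Sickle and mapped with TopHat on the MSU rice annotation, and RSEM gave FPKM. The submitters' processing notes name Bowtie 0.12.2 and the mouse build mm8 instead, and the header has the form of a Cuffnorm table. The FPKM values deposited by the authors (by name, fragments scaled by transcript length and by the number of mapped fragments, 55986 genes, 12 libraries) were used as they stand. Whether a further scaling was applied to them is not stated. Counts were not used here, so sequencing depth and counting error are not known.

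The 31681 genes above 0 FPKM in at least 3 of 12 libraries were tested. Group means of log2(FPKM + 0.1) were fitted over all 12 libraries in limma 3.58.1 (R 4.3.3), with variances that follow the mean. P-values were two-sided, with Benjamini-Hochberg adjustment across the tested genes. The fit was tested on simulated data. Groups came from the labels, and no pair of libraries held identical values.

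Classes were searched by words in the product descriptions of the study's list of heat-responsive genes, and members, lists and rules were chosen with earlier results of these data known. Genes were named by the largest changes (mean of at least 5 FPKM and at least 0.1 FPKM in each library), by the same among described loci, by abundance, by mention in the paper, as the 3 most abundant or the opposite members of a class, by the largest interaction, and by a change in *ntl3-1* with a WT log2FC of opposite sign or under 0.5 in size. Named outside this rule, after their values were seen, were all members of the chaperone, HSF, ER and WRKY classes, the ends of the other classes, further genes with an interaction and the photosystem II genes. Alternatives were an added constant of 1 or of 0.01 FPKM, a filter of 1 FPKM in 3 libraries, a filter of any value above 0, median-of-ratios rescaling, quantile normalization, the 6 *ntl3-1* libraries alone, a replicate block, a constant variance prior, an adjusted p of 0.01, no fold threshold and each *ntl3-1* library left out. Leaving out each WT library was added after seeing the data. The gene table at hand listed 0 of the locus names, so no coordinates or sequences are given, and chromosomes were read from those names.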

Additional observations from a re-analysis of the deposited data

Results flagged for a closer look

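The heat response of 27 genes named in the text or here differed between *ntl3-1* and WT by the interaction test of the limma fit (adjusted p of at most 0.05), and their interactions on the log2 scale are listed here as values, with no cause tested. LOC_Os01g43750 (-5.24) and LOC_Os03g21710 (-3.02) were down-regulated in *ntl3-1* and up-regulated in WT, and LOC_Os02g06605 (2.23) was up-regulated in *ntl3-1* and not called in WT. In OsbZIP74 (LOC_Os06g41770) the interaction was -0.98, in the MYB-like LOC_Os03g14810 it was -3.06 and in OsWRKY77 (LOC_Os01g40260) -3.04. The value for LOC_Os03g14810 rests on libraries listed at 0 and ranged from -6.31 with 0.01 FPKM added to -0.35 with 1 FPKM added, where it no longer passed.

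Genes up-regulated in both genotypes and less so in *ntl3-1* were LOC_Os01g06460 (-0.87), LOC_Os01g32670 (-2.16), LOC_Os01g40070 (-2.35), LOC_Os01g58620 (-1.83), LOC_Os01g67820 (-2.27), LOC_Os01g72900 (-2.76), LOC_Os02g39930 (-1.53), LOC_Os03g02874 (-1.90), LOC_Os03g48260 (-0.97) and LOC_Os03g53070 (-2.04). Up-regulated in WT and not called in *ntl3-1* were LOC_Os05g44310 (-1.13), LOC_Os06g19620 (-1.35), LOC_Os11g44430 (-1.93), LOC_Os01g65310 (-1.14) and LOC_Os01g65986 (-1.15). Down-regulated in *ntl3-1* and not called in WT were LOC_Os01g71340 (-1.78) and LOC_Os12g28590 (-2.19). A higher log2FC in *ntl3-1* was found for LOC_Os02g14720 (1.34), LOC_Os04g32030 (1.85), LOC_Os04g49680 (1.29) and LOC_Os08g39440 (2.05). Of the 27 interactions, 8 passed in all 20 alternatives at an adjusted p up to 0.05, of which 6 also passed at 0.01, and 14 passed in fewer than 10 of the 20.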

How the results depend on the processing

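No call of a gene chosen for naming changed direction in *ntl3-1* under any alternative, and the sign of the log2FC changed in at least 1 for 8 genes that were called in neither fit. Of 291 genes chosen for naming, 207 kept their side of the thresholds in all of the 21 alternatives of fit or libraries that tested them, and 84 crossed it in at least 1. With 1 FPKM added, 2947 genes were up- and 1715 down-regulated. With at least 1 FPKM in 3 libraries, 17 genes had a lower and 8 a higher log2FC in *ntl3-1* than in WT, in place of 47 and 29. An adjusted p of at most 0.01 left 12 and 12. Without a fold threshold 7511 genes rose and 7517 fell, with 446 class members called in place of 288. When each library was left out, 3822 to 4152 genes were up- and 3291 to 3663 down-regulated, with 282 to 314 class members called. The genes with a lower log2FC in *ntl3-1* numbered 18 to 45 and those with a higher one 14 to 27, the lowest when WT replicates 2 and 3 at 29 ºC, respectively, were omitted. For *ntl3-1* libraries, the genes with a lower log2FC fell to 26 and 21 without replicates 1 and 3 at 29 ºC and to 22 and 31 without replicates 2 and 3 at 45 ºC, and for WT they fell to 26 and 28 without replicates 1 and 3 at 29 ºC and to 27 and 25 without replicates 2 and 3 at 45 ºC. Those with a higher log2FC fell to 18 and 17 without replicates 1 and 3 of *ntl3-1* at 29 ºC, to 15 and 16 without replicates 1 and 2 of WT at 29 ºC and to 19 without replicate 3 of WT at 45 ºC. With fewer libraries the test has fewer degrees of freedom.

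With the replicate number as a block, 4074 genes were up- and 3579 down-regulated, and 32 had a lower and 18 a higher log2FC in *ntl3-1*. Deviations of libraries with the same number were correlated with r of 0.04, -0.01 and -0.03 across genes in *ntl3-1*, and not every library correlated best with its own number. With 3 libraries per group, these values cannot settle whether the numbers mark a batch or a pairing. The block changed no call of a gene chosen for naming in *ntl3-1*.

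Depth is unknown, and for genes near 0 FPKM the log2FC depends on the added constant.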
